A study of Mus musculus with 6 samples.

Results

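The aminoacyl tRNA synthetases are the enzymes that load each transfer RNA with its amino acid. The 36 genes described here were chosen by name, with symbols ending in 2 taken as mitochondrial, and all 36 were among the 23337 genes of the count table. Of these, 20 encode the cytosolic enzymes and 16 the mitochondrial ones. The symbols are the older ones used in the table (Iars for isoleucine, Iars2 for its mitochondrial counterpart, and so on).

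RNA was sequenced from mouse primary neonatal leukemia, in a series whose title concerns the microenvironment of MLL-rearranged leukemia. MLL rearrangements are translocations that fuse the histone methyltransferase gene Kmt2a to a partner gene. Samples were treated with ccl5, a chemokine (3 libraries), or kept under control conditions (3 libraries). Ccl5 replicate 1 (source name neo30ccl5) is labelled as a tertiary transplant, and ccl5 replicates 2 and 3 (both neo10ccl5) as primary transplants. Control replicates 1 (neo_control) and 2 (negative) carry no transplant label, and control replicate 3 (neo10ctrl) is labelled as a primary transplant. The labels do not explain neo10 and neo30, give no dose or duration of ccl5, no genotype, strain, age or MLL partner, and do not tie libraries to animals or cultures, so a p-value measures only the spread between these libraries, which may be technical. Total counts were 13421100 to 16613837 in the ccl5 libraries and 15507823 to 18445095 in the control libraries.

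Each synthetase recognises an amino acid and the tRNAs that carry it, activates the amino acid with ATP and joins the 2 together. Cytosol and mitochondria each make protein, and in mammals most amino acids have separate nuclear genes for the enzymes of the 2 compartments. Exceptions among the members are Gars and Kars, each of which makes both forms from 1 gene. Eprs joins the cytosolic glutamate and proline enzymes in 1 polypeptide, whereas Ears2 and Pars2 are separate mitochondrial genes. Several cytosolic synthetases sit together in a multi-synthetase complex held by the scaffold proteins AIMP1, AIMP2 and AIMP3. Many cytosolic synthetase genes are known targets of ATF4, the transcription factor of the amino acid response, which GCN2 (Eif2ak4) switches on when uncharged tRNA accumulates.

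The libraries did not group by label across the table. There were 3 pairs of libraries that lay close together: ccl5 replicates 1 and 3, control replicates 1 and 2, and ccl5 replicate 2 with control replicate 3. A chi-square statistic of the counts over genes, per degree of freedom, was 7.34, 3.63 and 4.54 for these 3 pairs and 212 to 501 for the other 12 pairs, so each pair differed by more than sampling noise and each library was counted as a separate one. Ccl5 replicates 1 and 3 also lacked the Y-linked reads present in the other 4 libraries, and they carry different transplant labels. Summed markers of monocytes and macrophages (6 genes) were 7393, 1022 and 8154 CPM (CPM being read counts scaled to the size of each library) in ccl5 replicates 1 to 3, against 1082, 1133 and 1060 CPM in control replicates 1 to 3. Neutrophil and myeloid markers (7 genes) summed to 1622, 6869 and 1397 CPM in the ccl5 libraries, against 1659, 1621 and 6572 CPM in the control libraries. Elane, neutrophil elastase, carried most of the 2 high sums, with 24.8, 4548 and 12.8 CPM in ccl5, against 219.7, 226 and 4360 CPM in control, and Mpo and Prtn3 were likewise highest in ccl5 replicate 2 and control replicate 3. The other 4 genes of the list (Itgam, Csf3r, Cebpa and Sfpi1) were lower in ccl5 replicate 2 than in ccl5 replicates 1 and 3. Among the control libraries, Csf3r, Cebpa and Sfpi1 were highest in control replicate 3, and Itgam was lowest there. Cell division markers (6 genes) summed to 181, 1663 and 123 CPM in the ccl5 libraries, against 616, 655 and 1600 CPM in the control libraries. B-cell markers, of which 4 of 6 had at most 3 counts in every library, summed to 11.4 to 15.6 CPM in ccl5 and 11.4 to 16.8 CPM in control, T-cell markers to 0.783 to 2.57 and 0.800 to 3.08 CPM, and erythroid markers, 3 of 6 at 0 throughout, to 1.18 to 2.02 and 1.46 to 1.98 CPM. Stromal and endothelial markers summed to 26.8 to 85.6 CPM in ccl5 and 86.0 to 98.6 CPM in control. Pecam1, which leukocytes also express, made up most of that sum, with 34.1, 84.8 and 26.3 CPM in ccl5, against 82.0, 94.1 and 87.7 CPM in control. Col1a1, Col1a2, Col3a1 and Cdh5 were below 1 CPM in every library. The remaining gene of the list, Kdr, measured 0.142, 0 and 0 CPM in ccl5, against 3.11, 3.41 and 0.055 CPM in control. These libraries are of bulk RNA, so a change in the mix of cells and a change in RNA per cell cannot be told apart, and the part of cell state, cell mix or animal in the values below was not tested.

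Levels between genes were compared per length, as TPM, read counts divided by gene length and scaled to the same total in each library. Cytosolic synthetases had a median of the mean TPM over the 6 libraries of 47.5 and a range from 20.8 TPM for Wars (tryptophan) to 152 TPM for Nars (asparagine). Mitochondrial synthetases had a median of 12.3 TPM and ran from 2.87 TPM for Pars2 (proline) to 81.8 TPM for Lars2 (leucine). For comparison, the median over the 12174 genes tested was 17.5 TPM. Nars and Dars (aspartate, 151 TPM) headed the order, and they did not differ beyond their spread between libraries. Lars2, Iars2 (30.9 TPM) and Rars2 (22.6 TPM) stood within the cytosolic range, and the other mitochondrial genes below it. In the leucine pair the mitochondrial gene was the more abundant, with a Lars to Lars2 TPM ratio of 0.458, and Iars to Iars2 stood at 0.910, whereas Nars was 24.6 times as abundant as Nars2.

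**Figure D1:**
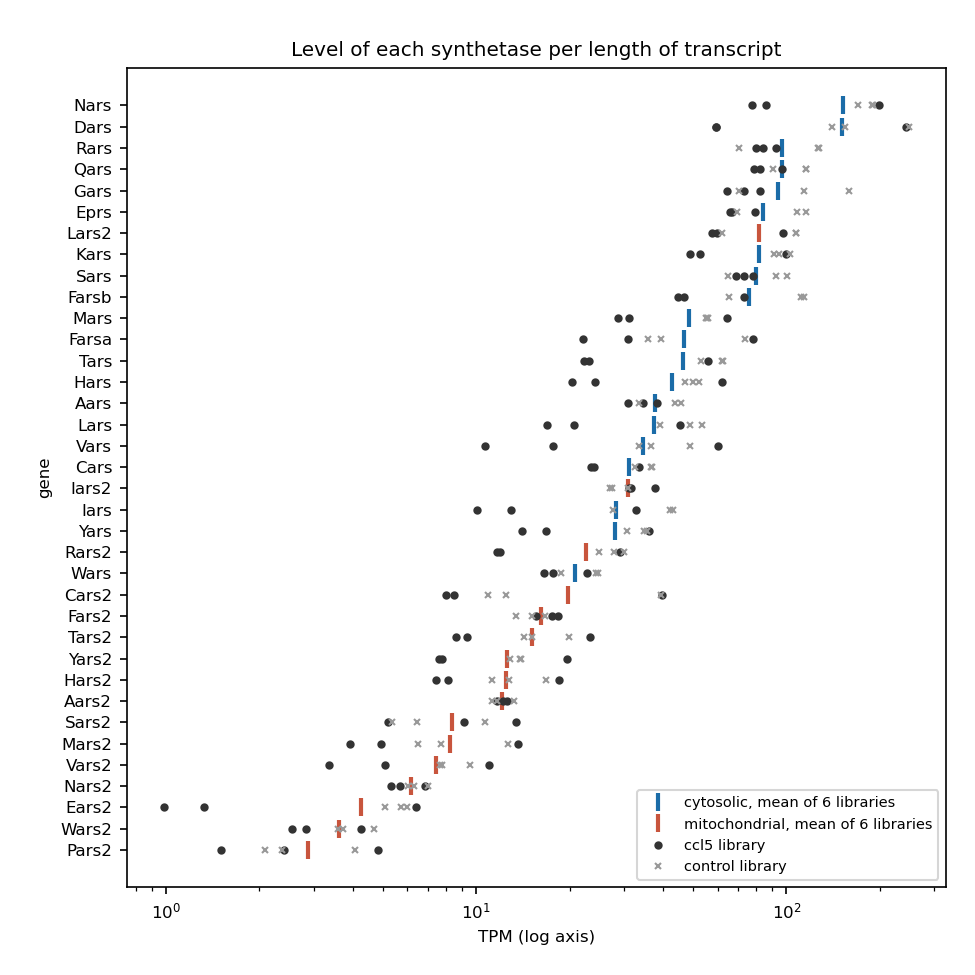
Level of the 36 synthetases in TPM on a log axis, with the mean of 6 libraries as a vertical bar (blue cytosolic, red mitochondrial) and each library as a dark dot (ccl5) or a grey cross (control). Cytosolic genes fill the upper end, from Nars at 152 TPM, and 14 of the 16 mitochondrial genes lie below 23 TPM.

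All 20 cytosolic synthetases had a fold change below 0 on the log2 scale in ccl5 libraries relative to control, with a median of −0.48 and a range from −1.05 for Iars to −0.12 for Sars. Of all 12174 tested genes, 51.0% had a negative fold change and the median was −0.01. No cytosolic synthetase passed the test across all genes (edgeR's quasi-likelihood test, Benjamini-Hochberg adjusted p from 0.365), and neither did any other gene, so the share called was 0% in each direction. At an unadjusted p under 0.05, 4 of the 20 genes were lower, beside 4.67% of all tested genes that were lower and 13.7% in either direction. None of the 20 separated the groups completely, beside 7.49% of tested genes with every ccl5 library below every control library and 8.27% with every ccl5 library above.

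**Figure D2:**
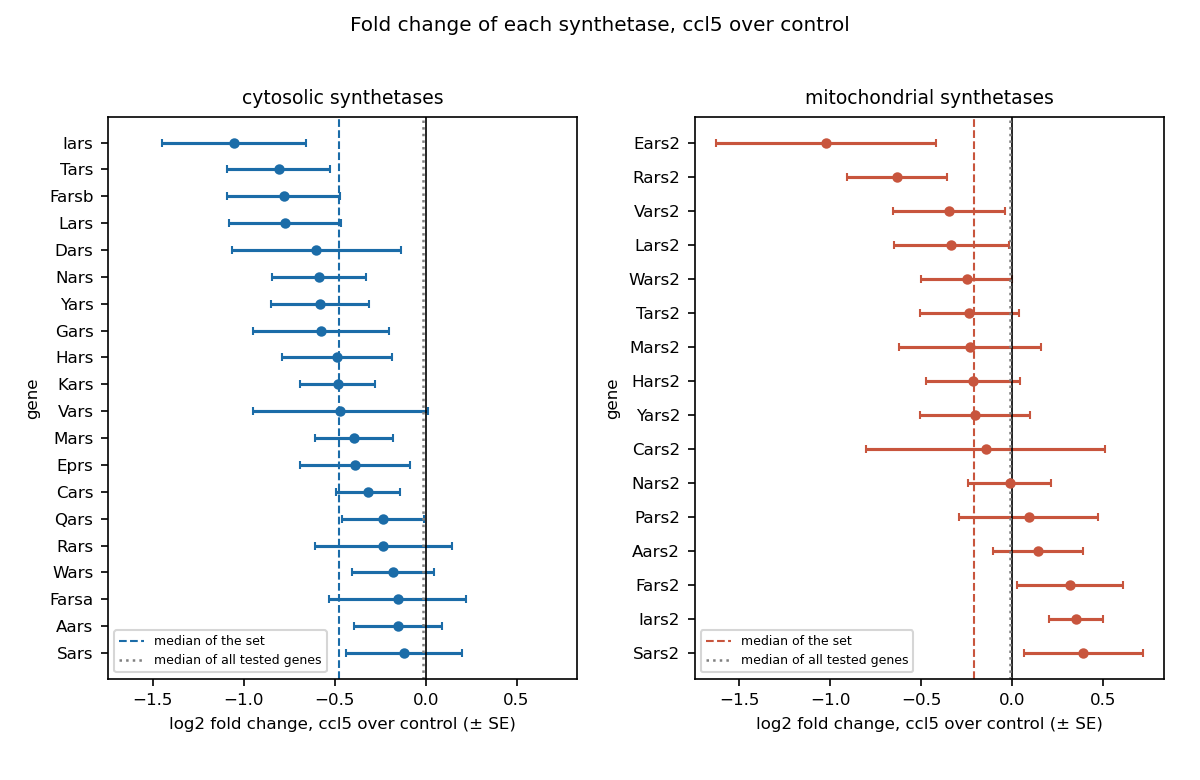
Fold change of each synthetase on the log2 scale, ccl5 over control, with its standard error as a bar; 3 libraries per group. All 20 cytosolic genes lie left of 0 (dashed median −0.48), while the mitochondrial genes spread over both sides (dashed median −0.21), and the dotted line is the median of all tested genes at −0.01.

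The cytosolic genes with the smallest p-values were those for threonine, isoleucine, leucine and phenylalanine. Tars, which charges the threonine tRNAs (chr15:11383663-11399658, mm10), was measured at 40.7, 69.4 and 41.7 CPM in ccl5 replicates 1 to 3, against 98.5, 98.9 and 68.2 CPM in control replicates 1 to 3. The groups overlapped by a single step, since ccl5 replicate 2 stood just above control replicate 3. Tars averaged 50.6 ± 16.3 CPM in ccl5 and 88.5 ± 17.6 CPM in control (SD, n = 3 each), a log2 fold change of −0.81 ± 0.28 (SE) with an edgeR adjusted p of 0.365.

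Iars, the isoleucine enzyme and a member of the multi-synthetase complex (chr13:49682130-49734267), had the most negative cytosolic value. It measured 37.9, 68.0 and 31.3 CPM in the ccl5 libraries, against 112, 114 and 59.3 CPM in the control libraries, which gave a log2 fold change of −1.05 ± 0.39 (SE, edgeR adjusted p = 0.365). Again ccl5 replicates 1 and 3 were lowest, control replicates 1 and 2 highest, and the other 2 libraries lay between them. Gm4849, a processed pseudogene that matches the Iars transcript at 96.0% identity over 1656 bases, had no row of its own in the table, and reads whose primary alignment fell there would not be counted for Iars.

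Lars, the leucine enzyme of the same complex, which has also been described as a leucine sensor for mTORC1 (chr18:42202349-42262071), measured 52.5, 81.6 and 45.5 CPM in ccl5, against 112, 123 and 72.4 CPM in control (log2 fold change −0.77 ± 0.31 SE, edgeR adjusted p = 0.365). Its 6 libraries took the same order by pairs as those of Tars and Iars. Farsb, the beta subunit of the phenylalanine enzyme (chr1:78424836-78488846), measured 66.2, 73.5 and 67.5 CPM in ccl5, against 143, 145 and 67.7 CPM in control (−0.78 ± 0.31 SE, edgeR adjusted p = 0.365). Here the 4 lower libraries were level, and control replicates 1 and 2 stood above all 4. Its partner subunit Farsa gave another order of libraries. Farsa measured 37.5, 67.4 and 28.7 CPM in ccl5 and 43.4, 39.4 and 65.7 CPM in control, a log2 fold change of −0.15 ± 0.38 (SE), with ccl5 replicate 2 and control replicate 3 the highest libraries.

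The most abundant cytosolic members were Nars and Dars. Nars, the asparagine enzyme (chr18:64499647-64516557), measured 151, 249 and 145 CPM in ccl5, against 271, 301 and 246 CPM in control (log2 fold change −0.59 ± 0.26 SE, edgeR adjusted p = 0.372). Dars, the aspartate enzyme of the complex (chr1:128363707-128417416), measured 98.9, 288 and 105 CPM in ccl5, against 212, 232 and 303 CPM in control (−0.60 ± 0.46 SE, edgeR adjusted p = 0.571). Both were low in ccl5 replicates 1 and 3, but Dars was highest in control replicate 3 and ccl5 replicate 2, where Tars, Iars and Lars were intermediate.

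Counted over the set, control replicates 1 and 2 were the 2 highest libraries for 16 of 20 cytosolic genes, beside 4 of 16 mitochondrial genes and 21.4% of all tested genes. Ccl5 replicates 1 and 3 were the 2 lowest for 12 of 20 cytosolic and 8 of 16 mitochondrial genes, beside 30.3% of all tested genes. The median cytosolic gene, as log2 CPM minus the mean of each gene, stood at −0.38, 0.07 and −0.40 in ccl5 replicates 1 to 3, against 0.32, 0.42 and −0.08 in control replicates 1 to 3. The same median over all tested genes was within 0.02 of 0 in every library. Control replicate 3 was thus nearer to ccl5 replicate 2 than to the other control libraries. Between those 2 libraries the median cytosolic log2 ratio, ccl5 replicate 2 over control replicate 3, was 0.14, and 18 of 20 genes were higher in ccl5 replicate 2, beside 50.6% of all tested genes. Within pairs of libraries the median absolute log2 difference of a cytosolic gene was 0.06 between ccl5 replicates 1 and 3, 0.07 between control replicates 1 and 2, and 0.14 between ccl5 replicate 2 and control replicate 3. It was 0.59 between ccl5 replicates 1 and 2 and 0.61 between control replicates 1 and 3, so libraries of 1 group could differ by more than the median group difference of 0.48 in size.

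**Figure D3:**
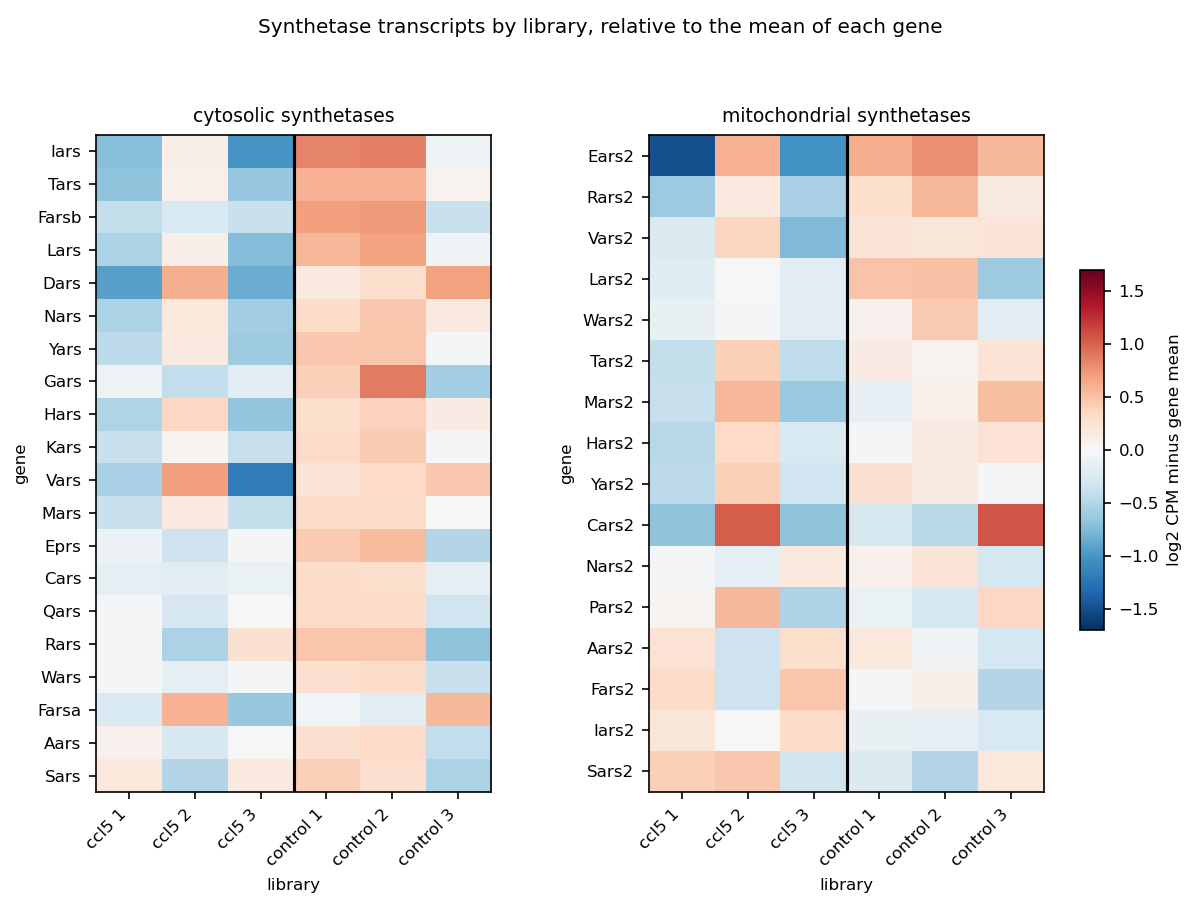
Log2 CPM of each synthetase minus the mean of that gene, by library, with ccl5 left of the black line and control right of it; red is above and blue below the mean. The cytosolic panel is mostly blue in ccl5 replicates 1 and 3 and red in control replicates 1 and 2, and Farsa, Dars, Vars and Cars2 are red in ccl5 replicate 2 and control replicate 3.

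How many members passed the test depended on single libraries and on the tool. Without ccl5 replicate 2, 9 cytosolic synthetases were lower past the threshold (Dars, Hars, Iars, Lars, Mars, Nars, Tars, Vars and Yars), beside 11.9% of tested genes lower and 14.3% higher. Without control replicate 3, Farsb alone passed (edgeR adjusted p = 0.042), beside 1.34% of tested genes called lower and 0.541% higher. The Wald test of DESeq2 called none of the 36 members, beside 0.436% of its tested genes lower and 0.635% higher, and limma-voom with quality weights called 18 cytosolic and 8 mitochondrial members lower and 2 mitochondrial members higher, beside 33.5% of tested genes lower and 33% higher. With the 3 libraries labelled as primary transplants, 2 ccl5 against 1 control, 11 of 20 cytosolic genes were lower and the median was −0.12. With the 4 libraries that held Y-linked reads, ccl5 replicate 2 against the 3 controls, 16 of 20 were lower and the median was −0.34.

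The set was also split by structure. The 8 cytosolic synthetases of the multi-synthetase complex had a median log2 fold change of −0.44 and the 12 others −0.48. Synthetases also fall into class I and class II by the fold of the catalytic domain, and these had medians of −0.39 (10 genes) and −0.53 (10 genes). Eprs, which joins the glutamate and proline enzymes, was counted in class I alone, although the proline enzyme is of class II. These differences of medians were not tested.

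The scaffold genes of the complex, which carry no synthetase activity, were all 3 lower without passing the test, with a median of −0.63. Eef1e1, which encodes AIMP3, measured 12.9, 29.4 and 15.3 CPM in ccl5, against 49.0, 54.0 and 28.3 CPM in control (log2 fold change −1.19 ± 0.41 SE, edgeR adjusted p = 0.365). Its libraries overlapped by the usual pair, ccl5 replicate 2 with control replicate 3. Aimp2 measured 9.26, 16.5 and 11.6 CPM in ccl5, against 18.0, 24.5 and 15.2 CPM in control (−0.63 ± 0.31 SE, edgeR adjusted p = 0.403), and Aimp1 59.3, 59.2 and 69.0 CPM, against 86.1, 83.4 and 60.0 CPM (−0.29 ± 0.19 SE, edgeR adjusted p = 0.5).

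Some cytosolic members share exon sequence with a neighbour, and the counting set no strand. Aars shares 532 bases of exon with Exosc6 on the same strand, Mars 68 bases with Ddit3 on the opposite strand and Yars 30 bases with C77080 on the opposite strand. C77080 measured 133, 6.53 and 114 CPM in ccl5, against 15.3, 15.9 and 5.23 CPM in control, opposite to Yars, and Ddit3 64.0, 8.24 and 84.0 CPM in ccl5, against 38.7, 32.4 and 10.3 CPM in control. Reads in the shared bases cannot be told apart between such genes. Hars and Hars2, neighbouring genes, share 195 identical transcript bases.

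Promoter sequence was examined because all 20 cytosolic fold changes had the same sign. RefSeq promoters (GRCm38.p6, 250 bases before to 50 after the start) matched 13 cytosolic, 14 mitochondrial and 3 scaffold genes. They were searched on both strands for the C/EBP-ATF response element, written TGATGNAA, to which ATF4 binds with a C/EBP partner. It was present for 5 of 13 cytosolic genes (Aars, Gars, Iars, Tars and Yars), 0 of 14 mitochondrial and 0 of 3 scaffold genes. Of all 27025 genes with a promoter, 4.511% held it. Genes of the amino acid response that served for comparison held it in 4 of 14 promoters (Asns, Chac1, Trib3 and Slc7a11). The windows below show the element in capitals, on the strand of the gene, with 25 bases on each side, for the 5 synthetases and for Asns, which makes asparagine and is a standard ATF4 target.
Tars, chr15:11399641-11399698, minus strand: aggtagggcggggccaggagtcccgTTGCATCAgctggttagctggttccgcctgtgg
Iars, chr13:49682112-49682169, plus strand: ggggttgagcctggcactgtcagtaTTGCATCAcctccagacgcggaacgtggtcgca
Yars, chr4:129189881-129189938, plus strand: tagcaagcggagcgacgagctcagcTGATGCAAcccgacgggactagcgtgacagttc
Gars, chr6:55037946-55038003, plus strand: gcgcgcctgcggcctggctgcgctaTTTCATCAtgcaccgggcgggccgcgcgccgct
Aars, chr8:111033705-111033762, plus strand: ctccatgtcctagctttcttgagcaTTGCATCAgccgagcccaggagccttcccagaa
Aars, chr8:111033826-111033883, plus strand: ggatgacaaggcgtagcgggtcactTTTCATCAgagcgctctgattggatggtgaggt
Asns, chr6:7693200-7693257, minus strand: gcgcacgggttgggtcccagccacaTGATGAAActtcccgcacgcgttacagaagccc

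In Tars, Iars and at the first Aars site the same 8 letters occurred, and in Yars their reverse complement. The log2 fold changes of the 5 genes were −1.05 for Iars, −0.81 for Tars, −0.58 for Yars, −0.57 for Gars and −0.15 for Aars. All but Aars lay below the cytosolic median of −0.48. A link between the element and the fold changes was not tested. Farsb, with −0.78, held no TGATGNAA in its window. An E-box CACGTG, the letters bound by MYC and related factors, was present in 4 of 13 cytosolic promoters (Aars, Farsb, Iars and Tars). It was present in 1 of 14 mitochondrial promoters (Ears2) and for 8.093% of all genes with a promoter. In none of these promoters did a CACGTG overlap a TGATGNAA. The whole Tars window is printed with its response element in capitals, and Iars2, the counterpart of Iars, whose fold change of 0.35 was above 0 without passing the test, is printed beside it; neither search found a match in Iars2.
Tars, chr15:11399609-11399908, minus strand: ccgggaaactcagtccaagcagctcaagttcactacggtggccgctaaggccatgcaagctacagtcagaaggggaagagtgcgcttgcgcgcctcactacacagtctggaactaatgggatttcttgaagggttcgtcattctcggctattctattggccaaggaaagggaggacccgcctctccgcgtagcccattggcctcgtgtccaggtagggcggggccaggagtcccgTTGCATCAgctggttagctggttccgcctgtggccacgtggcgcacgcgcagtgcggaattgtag
Iars2, chr1:185329352-185329651, minus strand: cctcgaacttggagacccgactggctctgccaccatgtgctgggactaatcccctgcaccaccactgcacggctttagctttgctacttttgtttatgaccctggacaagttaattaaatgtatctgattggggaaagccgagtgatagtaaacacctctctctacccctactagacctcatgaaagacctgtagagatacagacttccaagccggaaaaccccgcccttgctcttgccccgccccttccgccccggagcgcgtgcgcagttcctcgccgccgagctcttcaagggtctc

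The mitochondrial synthetases had fold changes on both sides of 0. Of the 16 genes, 11 were lower and 5 higher in ccl5 by the sign of the fold change, with a median of −0.21 and a range from −1.02 for Ears2 to 0.39 for Sars2. None passed the test (edgeR adjusted p from 0.367) and none had an unadjusted p under 0.05. The median gene, as log2 CPM minus the mean of each gene, stood at −0.23, 0.36 and −0.32 in ccl5 replicates 1 to 3, against 0.07, 0.12 and 0.16 in control replicates 1 to 3. Ccl5 replicate 2 was the highest of the 6 libraries by this measure and exceeded control replicate 3 for 14 of 16 genes. Leaving it out gave 3 of 16 lower calls (Ears2, Rars2 and Tars2), beside 11.9% of tested genes lower, and 1 of 16 higher (Iars2), beside 14.3% of tested genes higher. Restricting the comparison to the 4 libraries with Y-linked reads turned the median to 0.16.

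Iars2, the mitochondrial isoleucine enzyme (chr1:185286662-185329401), was the single member whose groups did not overlap. It measured 73.3, 62.8 and 79.4 CPM in ccl5, against 58.3, 57.5 and 53.1 CPM in control (71.8 ± 8.36 and 56.3 ± 2.81 CPM, SD, n = 3 each). Every ccl5 library was above every control library, a layout shared by 8.27% of tested genes, and the log2 fold change was 0.35 ± 0.15 (SE, edgeR adjusted p = 0.367). Iars2 shares 85 bases of exon with Rab3gap2 on the opposite strand in the counting annotation. In the longer GENCODE annotation, transcripts of Iars2 and Rab3gap2 were identical over 2034 bases. Rab3gap2, a regulator of RAB3 and RAB18, measured 267, 113 and 273 CPM in ccl5, against 123, 118 and 109 CPM in control, so it was highest in the same 2 libraries as Iars2, and the part of its reads in the Iars2 count was not tested.

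The genes for glutamate and arginine had the most negative mitochondrial values. Ears2, which in mammals charges both the glutamate and the glutamine tRNAs of mitochondria (chr7:122038821-122067063), was counted in 17, 91 and 19 reads in ccl5, against 89, 119 and 98 reads in control. This was 1.21, 5.56 and 1.73 CPM in ccl5, against 5.64, 6.34 and 5.39 CPM in control (log2 fold change −1.02 ± 0.61 SE, edgeR adjusted p = 0.468). Ears2 was thus low in ccl5 replicates 1 and 3 and about level in the other 4 libraries. Rars2, the arginine enzyme (chr4:34614958-34660167), measured 14.8, 25.7 and 15.5 CPM in ccl5, against 28.0, 33.6 and 25.3 CPM in control (−0.63 ± 0.27 SE, edgeR adjusted p = 0.37).

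Sars2, the serine enzyme (chr7:28741968-28753879), had the highest mitochondrial fold change. It measured 11.6, 12.1 and 7.01 CPM in ccl5, against 7.42, 6.13 and 9.90 CPM in control (0.39 ± 0.33 SE, edgeR adjusted p = 0.601), and ccl5 replicates 1 and 3, close in most members, stood apart here. Lars2, the most abundant mitochondrial member (chr9:123366940-123462664), measured 154, 178 and 158 CPM in ccl5, against 250.2, 251 and 117 CPM in control (−0.33 ± 0.32 SE, edgeR adjusted p = 0.644). Control replicate 3 was its lowest library and the other control libraries its highest. Gm15564, an antisense gene with no row of its own, matched the Lars2 transcript at 98.6% identity over 72 bases. Its part in the Lars2 count and level was not tested. Lars2 was also the single member for which ccl5 replicate 2 and control replicate 3 differed by more than 0.5 on the log2 scale, with a log2 ratio of 0.60, ccl5 replicate 2 over control replicate 3. Cars2, the cysteine enzyme, measured 10.5, 34.6 and 10.5 CPM in ccl5, against 13.9, 12.1 and 35.6 CPM in control, so ccl5 replicate 2 and control replicate 3 stood far above the other 4 libraries while the fold change was −0.15 ± 0.66 (SE). The remaining mitochondrial members had fold changes between −0.35 (Vars2) and 0.32 (Fars2).

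Cytosolic and mitochondrial genes for the same amino acid were set side by side in 13 pairs, leaving out Eprs, which serves both glutamate and proline, and the 2 subunits of the phenylalanine enzyme. The cytosolic gene had the lower fold change in 11 of 13 pairs, the exceptions being Rars with Rars2 and Wars with Wars2, and the median difference, cytosolic minus mitochondrial, was −0.29. In 3 pairs (Iars, Sars and Aars with their counterparts) the cytosolic value was below 0 and the mitochondrial above it. The log2 ratio of Iars to Iars2 CPM was −0.95, 0.11 and −1.34 in ccl5, against 0.94, 0.99 and 0.16 in control. The ratio of Tars to Tars2 was 0.56, 0.51 and 0.62 in ccl5, against 1.28, 1.38 and 0.66 in control. These were the 2 of 13 pairs whose ratio in all ccl5 libraries was below that of any control library, and in both the gap between ccl5 replicate 2 and control replicate 3 was small. The share of other gene pairs with this layout was not computed. Of single tested genes, 7.49% had every ccl5 library below every control library. With the primary transplant libraries alone, the difference between the cytosolic and mitochondrial medians was 0.01, against −0.26 with all 6 libraries.

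**Figure D4:**
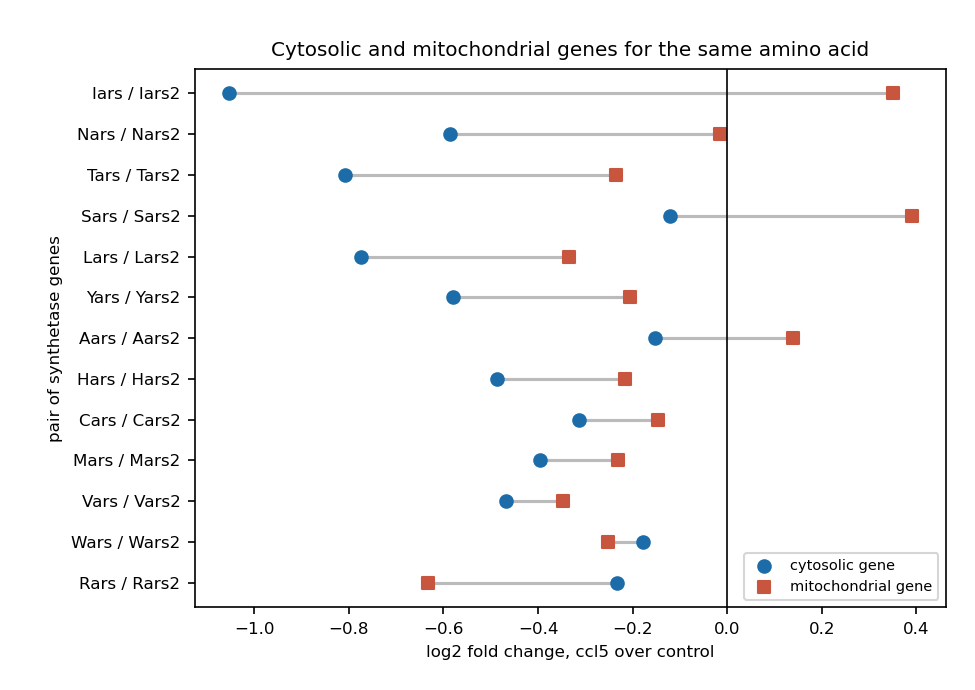
Log2 fold change, ccl5 over control, of the cytosolic (blue circle) and mitochondrial (red square) gene for the same amino acid, 13 pairs ordered by the difference. The cytosolic gene lies to the left in 11 pairs, most widely for Iars with Iars2 (−1.05 and 0.35), and to the right for Rars and Wars.

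Genes that work beside the mitochondrial synthetases had a median nearer to 0. Of 13 tested genes of mitochondrial tRNA charging and translation, 10 were lower and 3 higher with a median of −0.10, and none passed the test. Mrrf, the mitochondrial ribosome recycling factor, had the smallest p and measured 15.4, 16.1 and 15.5 CPM in ccl5, against 22.4, 21.6 and 19.6 CPM in control (log2 fold change −0.44 ± 0.16 SE, edgeR adjusted p = 0.365), with no overlap between the groups. Every ccl5 library was below every control library for 7.49% of tested genes. Gatc, a subunit of the amidotransferase that turns glutamate on the mitochondrial glutamine tRNA into glutamine, measured 28.0, 28.5 and 27.3 CPM in ccl5, against 21.8, 22.5 and 26.6 CPM in control (0.24 ± 0.16 SE, edgeR adjusted p = 0.501). Its 3 ccl5 libraries were all above the control libraries, the nearest by less than 1 CPM, and 8.27% of tested genes had this layout.

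Genes of ATF4 and the amino acid response differed in both directions. Of 16 tested, 12 were lower and 4 higher, with a median of −0.41, and none passed the test. Psat1, a serine synthesis enzyme, measured 50.2, 111 and 38.1 CPM in ccl5, against 226, 238 and 102 CPM in control (log2 fold change −1.50 ± 0.52 SE, edgeR adjusted p = 0.365). It ordered the libraries as Iars did. Eif2ak4, the kinase GCN2, measured 90.0, 52.3 and 98.6 CPM in ccl5, against 41.4, 41.0 and 52.5 CPM in control (0.84 ± 0.27 SE, edgeR adjusted p = 0.365). Slc3a2, the heavy chain of amino acid transporters, measured 276, 81.1 and 255 CPM in ccl5, against 95.8, 96.6 and 71.4 CPM in control (1.21 ± 0.47 SE, edgeR adjusted p = 0.365). Both were highest in ccl5 replicates 1 and 3. These were the lowest libraries for the cytosolic median and for 12 of 20 cytosolic synthetases, beside 30.3% of all tested genes. Atf4 itself measured 162, 155 and 167 CPM in ccl5, against 228, 234 and 149 CPM in control (−0.33 ± 0.21 SE, edgeR adjusted p = 0.496). The list's median in each library, as log2 CPM minus the mean of each gene, was −0.12, −0.19 and −0.08 in ccl5, against 0.61, 0.63 and −0.22 in control, so control replicates 1 and 2 stood above the other 4, as they did for the cytosolic synthetases.

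**Figure D5:**
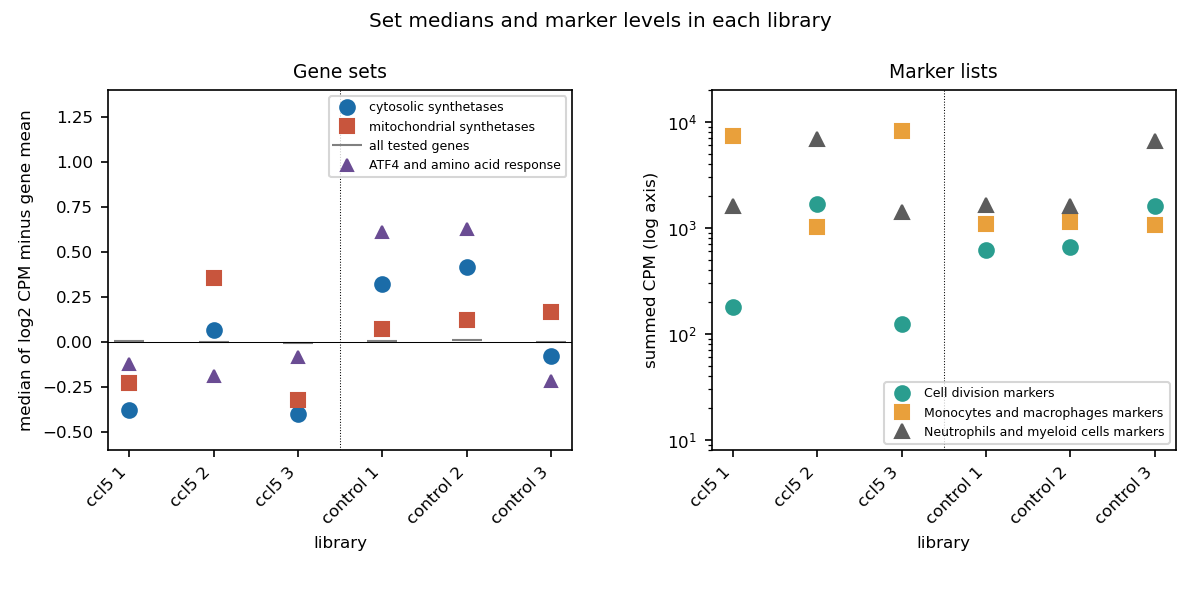
Left, median of log2 CPM minus gene mean in each library for cytosolic synthetases (circles), mitochondrial synthetases (squares), the ATF4 list (triangles) and all tested genes (grey dashes). Right, summed CPM of 3 marker lists on a log axis. Ccl5 replicates 1 and 3 have the lowest cytosolic medians (−0.38 and −0.40) and the lowest cell division sums (181 and 123 CPM). They also have the highest monocyte and macrophage sums (7393 and 8154 CPM). The highest cytosolic medians are in control replicates 1 and 2 (0.32 and 0.42). The highest cell division sums are in ccl5 replicate 2 and control replicate 3 (1663 and 1600 CPM).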

How the data were processed

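The deposited table held raw read counts per gene, 1 column per library, made with featureCounts 1.5.1 on primary alignments with a UCSC mm10 annotation and no strand option, per the file headers. The reads were 100 bases from poly(A)-selected RNA, per the labels' protocols. Gene lengths in bases from the deposited table were used for TPM. Groups came from the treatment labels and titles.

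Of the 18580 genes with at least 1 count, filterByExpr (minimum count 10) kept 12174, all 36 members included. Counts were scaled by TMM and tested with edgeR 4.0.16 (R 4.3.3) by its two-sided quasi-likelihood F test, with Benjamini-Hochberg adjustment over all tested genes and a threshold of 0.05. The fitted coefficient of variation was 46.1%. CPM uses TMM-scaled library sizes; ratios of CPM add 0.1, and centred log2 CPM uses a prior count of 2. TPM compares genes, not libraries. The SE of a fold change is its size divided by the square root of F. The fit was tested on simulated data. Alternatives used limma 3.58.1 and DESeq2 1.42.0. Transcripts of GENCODE vM21 were compared with blastn 2.17.0 for copies of at least 95% identity over 70 bases. Promoters are from RefSeq (GRCm38.p6).

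The members and lists were chosen with earlier results of these data known. Values per library are given for the 4 members of each set with the smallest p, the 2 of each set with the highest mean TPM, and up to 3 genes of each other list by p; Farsa, Cars2, Atf4, Rab3gap2, Ddit3 and C77080 were added after their values were seen. Some genes that this rule selects are not reported here.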

Additional observations from a re-analysis of the deposited data

How the results depend on the processing

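The fold changes of the 36 members and the medians of both sets kept their direction, and no call changed, with DESeq2 size factors, without the filter on low counts, with a filter of CPM over 1 in 3 libraries and at a threshold of 0.1. Leaving out a library moved the count of genes called from 0 to 3299 and of members called from 0 to 13; the highest counts came without ccl5 replicate 2, and without control replicate 3 the counts were 237 genes and 1 member. Over the same omissions the cytosolic median ranged from −0.62 to −0.34, the mitochondrial from −0.44 to −0.05 and their difference from −0.39 to −0.18. Members whose sign turned in them were Farsa (−0.58 to 0.12), Sars (−0.35 to 0.075), Cars2 (−0.97 to 0.53), Nars2 (−0.14 to 0.10) and Pars2 (−0.22 to 0.33). The DESeq2 Wald test called 199 genes and 0 members. With limma-voom and quality weights, which can weight down libraries that stand apart, 8097 genes and 28 members were called (18 cytosolic lower, 8 mitochondrial lower, 2 higher, beside 33.5% of tested genes lower and 33% higher) and the cytosolic median was −0.74.

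With primary transplant libraries only, the cytosolic median was −0.12 and its difference from the mitochondrial one 0.0095, and the fold change turned for Aars (0.28), Cars (0.011), Eprs (0.30), Farsb (0.043), Gars (0.28), Qars (0.18), Rars (0.57), Sars (0.39), Wars (0.27), Lars2 (0.50), Nars2 (0.29), Pars2 (−0.25), Sars2 (−0.063), Wars2 (0.053) and Yars2 (0.11). With only libraries that held Y-linked reads, the mitochondrial median was 0.16 and the difference −0.49, and the fold change turned for Dars (0.21), Farsa (0.44), Hars (0.067), Vars (0.36), Aars2 (−0.31), Cars2 (0.75), Fars2 (−0.23), Hars2 (0.21), Mars2 (0.39), Tars2 (0.26), Vars2 (0.16) and Yars2 (0.27). Both fits leave 1 library in a group, assumed to vary like the others. The cause of these shifts was not tested. No paired analysis was possible because the groups share fewer than 2 numbers in the labels: the unexplained neo10 of ccl5 replicates 2 and 3 recurs in control replicate 3 alone. Depth limits mainly Ears2 and Pars2, the members with the fewest reads.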

Other observations

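Beside the synthetases, 5 genes that edit or release mischarged or stalled tRNA were tested, and 3 were lower and 2 higher in ccl5, with a median log2 fold change of −0.24 and none past the test. Prorsd1, a prolyl-tRNA editing domain protein, measured 27.6, 24.6 and 32.9 CPM in ccl5, against 21.4, 22.2 and 25.9 CPM in control (0.29 ± 0.18 SE, edgeR adjusted p = 0.492). Dtd1, which clears D-amino acids from tRNA, measured 8.05, 15.7 and 5.73 CPM in ccl5, against 14.1, 18.6 and 13.6 CPM in control (−0.65 ± 0.41 SE, edgeR adjusted p = 0.494).

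The cytosolic elongation factors carry charged tRNA to the ribosome and move it along. Of 5 genes, 4 were lower and 1 higher, with a median of −0.13 and none past the test. Eef1b2, a subunit of the exchange factor, measured 434, 625 and 482 CPM in ccl5, against 817, 850.1 and 685 CPM in control (−0.61 ± 0.21 SE, edgeR adjusted p = 0.365), without overlap between the groups. The ccl5 libraries were likewise all below the control libraries for 7.49% of tested genes. Eef1a1, the factor that delivers charged tRNA, measured 10045, 9850.1 and 11621 CPM in ccl5, against 16596, 17232 and 10472 CPM in control (−0.49 ± 0.30 SE, edgeR adjusted p = 0.48). Eef1d, another exchange factor subunit, measured 97.7, 106 and 105 CPM in ccl5, against 117, 117 and 102 CPM in control (−0.13 ± 0.14 SE, edgeR adjusted p = 0.688).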
